A study of Sus scrofa with 4 samples.

Results

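The genes described here encode the ligands, receptors, SMAD proteins, inhibitors and targets of transforming growth factor beta (TGF-beta) and bone morphogenetic protein (BMP) signalling. They were taken as the 39 symbols of a fixed list, and all 39 had a row among the 22309 genes of the deposited table. Messenger RNA was measured in 4 pig ovary samples, 2 wild type (WT) and 2 with leptin overexpression, all in diestrus, the luteal part of the cycle. The leptin overexpression sows were F2 generation animals from crosses of the cloned sons of a re-cloned transgenic pig with Duroc/Landrace/Yorkshire sows, and had been found positive for the overexpression by PCR, qPCR and immunoblotting. The founder was the pig C013. The promoter of the transgene, the age of the sows and the relation of the WT sows to the crosses were not given in the sources used here. Whether each sample is a different sow is not stated, and the p-values therefore cover only sample-to-sample spread, which may be technical. The count of LEP, the overexpressed gene, was 0 and 3 in WT against 55 and 124 under leptin overexpression, in the direction of the labels.

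TGF-beta ligands are secreted in a latent form, held in the matrix by latent TGF-beta binding proteins (LTBPs) and released by integrins, thrombospondin and proteases. The freed ligand joins the type II receptor TGFBR2 to the type I receptor TGFBR1, which phosphorylates SMAD2 and SMAD3. BMP ligands act through BMPR2 and the type I receptors BMPR1A, BMPR1B and ACVR1 on SMAD1, SMAD5 and SMAD9, and the ID genes are their best known early targets. Both kinds of receptor SMAD need SMAD4, and both arms are held back by SMAD7. In the ovary BMPs from theca cells, granulosa cells and oocytes are known to modulate the response of follicles to gonadotropins and to restrain luteinisation.

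Total estimated counts were 16493113 to 16797511 per library. Levels are CPM, counts scaled to library size with TMM factors that correct each library for its composition, and are given as WT replicate 1, WT replicate 2, leptin overexpression replicate 1 and leptin overexpression replicate 2. The TMM factors ran from 1.34 in WT replicate 1 to 0.809 in leptin overexpression replicate 2. The libraries were compared across genes, which are not independent replicates. Pearson's r of WT replicate 2 was 0.917 with WT replicate 1 and 0.941 with leptin overexpression replicate 1. WT replicate 1 and leptin overexpression replicate 2 were the least alike, at 0.856. WT replicate 1 was at 0.890 with leptin overexpression replicate 1, and WT replicate 2 at 0.892 with leptin overexpression replicate 2. The leptin overexpression libraries were at 0.936 with each other. Ovarian markers were present in all 4 libraries. The summed CPM of 6 matched luteal cell markers, led by STAR and CYP11A1, was 13616 in WT replicate 1 against 34996, 32629 and 36677 in the others. The sum of 8 granulosa markers, led by NR5A2 and SERPINE2, was 1564 to 1758 CPM in all libraries. Its members did not move together. In leptin overexpression 3 were lower and 5 higher, 1 of each with no overlap between the groups. Of all genes 22.9% were lower and 22.2% higher in that way. The sum of 5 theca markers, led by CYP17A1 and NR5A1, was 255 and 1823 CPM in WT against 954 and 453 CPM. LHCGR is on both the theca and the luteal list. That of 6 stromal markers, led by COL3A1 and COL1A2, was 6968 and 6501 CPM in WT against 11844 and 7526 CPM.

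Of the 39 genes, 36 were abundant enough to be tested, and 0 passed the threshold of 0.05 (edgeR's quasi-likelihood test, adjusted over 13937 genes by the Benjamini-Hochberg method). The background was low, since 0.0287% of all genes passed as higher and 0 genes passed as lower. LEP itself, at a 72.6-fold higher level, did not pass either (adjusted p = 0.198). A gene that did not pass can therefore not be taken as unchanged. At an unadjusted p under 0.05 there were 4 lower genes of the 36, LTBP2, CHRDL1, ID4 and ACVRL1, against a background of 5.32%, and 1 higher gene, BMP1, against 4.04%. Both directions together made 5 of 36, against 9.36% of all genes. DESeq2 called 1 of the 36, LTBP2, as lower, where it called 1.36% of all genes lower and 0.658% higher. Limma-trend on FPKM called 1, CHRDL1, as lower, where it called 1.84% of all genes lower and 0.502% higher, and limma-voom called 0 of the 36 and 0.00718% of all genes. The 36 genes had at least 19 counts in every library, so none was kept through 1 group alone. In bulk tissue, fewer cells of a type and less RNA per cell cannot be told apart.

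**Figure D1:**
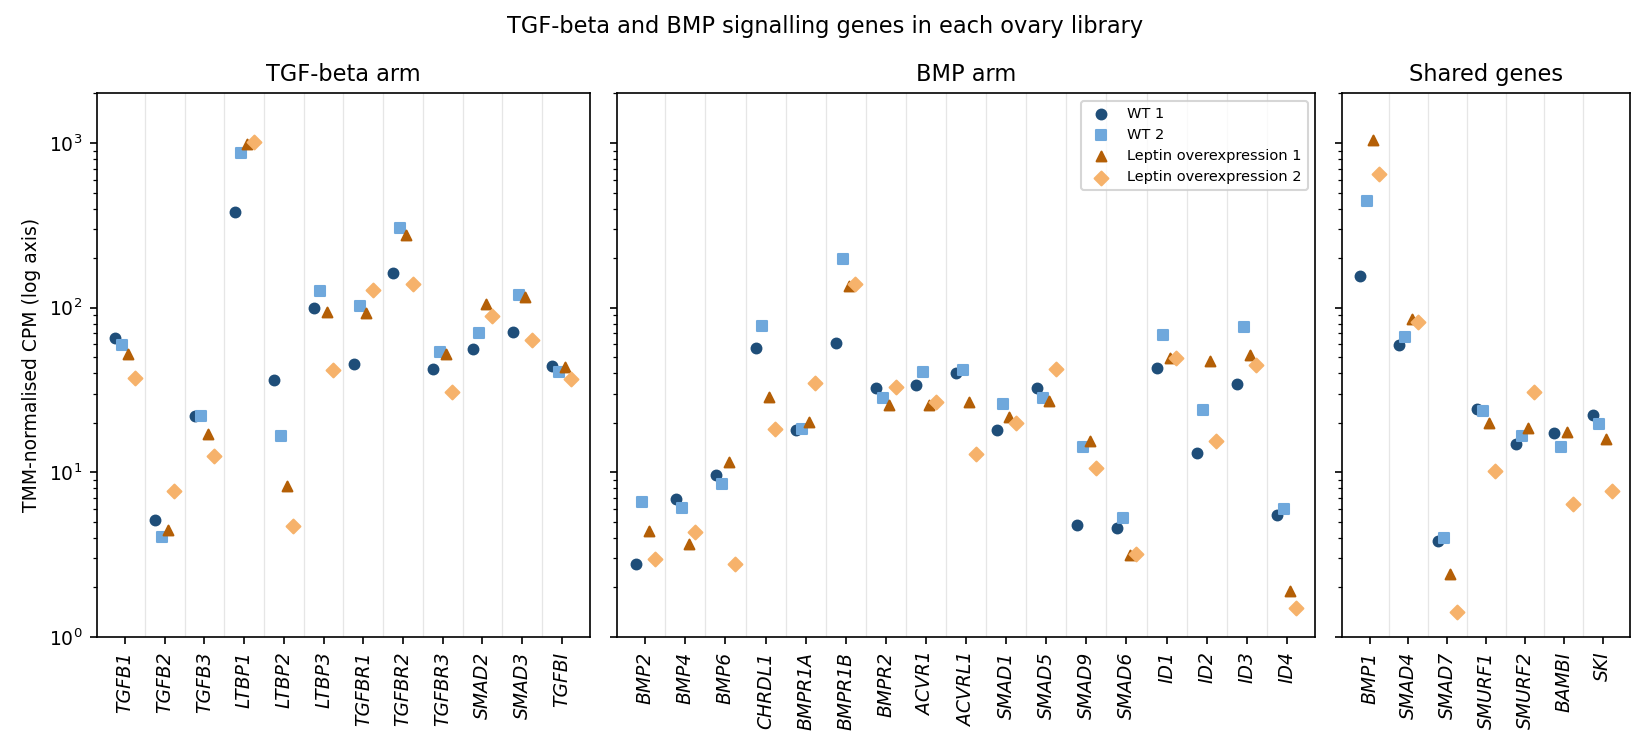
TMM-normalised CPM on a log axis for the 36 tested genes, by arm, with 1 point for each of the 4 ovary libraries. The LTBP2, CHRDL1 and ID4 points of leptin overexpression lie below both WT points, and those of BMP1 lie above them.

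Among the TGF-beta ligands, TGFB1 and TGFB3 had lower values in leptin overexpression and TGFB2 did not separate. TGFB1 (ENSSSCG00000003017), the most abundant of the 3, was at 65.5 and 59.6 CPM in WT against 52.2 and 37.4 CPM in leptin overexpression. TGFB3 was at 22.1 in both WT libraries and at 17.1 and 12.5 CPM in leptin overexpression. Neither gene overlapped between the groups, but the log2 fold changes of -0.48 (SE 0.36) and -0.58 (SE 0.39) did not pass (adjusted p = 0.655 and 0.629). TGFB2 was at 5.13, 4.06, 4.44 and 7.69 CPM, with leptin overexpression replicate 2 above the other libraries. On the per-length FPKM scale TGFB1 made up 71.6% and 70.5% of the summed level of the 3 ligands in WT and 70.7% and 65.2% in leptin overexpression, so it led in every library.

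The most negative log2 fold change of the 36 was that of an LTBP gene. LTBP2 (ENSSSCG00000002368), a matrix protein of the LTBP family that is known to bind fibrillin but not TGF-beta, was at 36.5 and 16.6 CPM in WT against 8.29 and 4.71 CPM in leptin overexpression. This is 4.08-fold lower (log2 fold change -2.03, SE 0.53, adjusted p = 0.266), and every leptin overexpression library lay below both WT libraries. LTBP2 passed with DESeq2 (adjusted p = 0.0295), without a filter on low counts (0.0179) and without WT replicate 2 (0.00529), while its adjusted p over all alternatives reached 0.999991. The WT libraries differed by 1.12 on the log2(CPM + 0.5) scale, and without WT replicate 1 the log2 fold change was -1.36. LTBP3, which carries latent TGF-beta, was at 99.1 and 127 CPM in WT against 93.9 and 42.0 CPM in leptin overexpression (log2 fold change -0.73, SE 0.45, adjusted p = 0.607).

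LTBP1 (ENSSSCG00000008510), the main carrier of latent TGF-beta, had values in the other direction. It was at 380 and 874 CPM in WT against 993 and 1014 CPM in leptin overexpression (log2 fold change 0.68, SE 0.53, adjusted p = 0.671). The low point was WT replicate 1 alone. The log2 fold change was 0.18 with that library left out and 1.37 with WT replicate 2 left out, and LTBP1 overlapped between the groups in FPKM. On the FPKM scale LTBP1 made up 74.4% and 85.5% of the summed LTBP1, LTBP2 and LTBP3 level in WT and 90.2% and 95.5% in leptin overexpression, while LTBP3 made up 20.9% and 13.4% against 9.24% and 4.23%. LTBP4, which is not among the 39 genes, was left out of this sum. It was at 38.7 and 26.15 FPKM in WT against 12.1 and 5.3 FPKM in leptin overexpression. LTBP3 was at 26.42 and 25.22 against 17.32 and 6.76 FPKM. Shares of this kind do not depend on the scaling of a library. Leptin overexpression had the 2 higher LTBP1 shares, and an exact two-sided permutation test gave p = 0.333, the smallest that 2 samples against 2 allow. Of 26 such shares computed within gene families, none can go below that value, and the smallest adjusted p was 0.825.

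**Figure D2:**
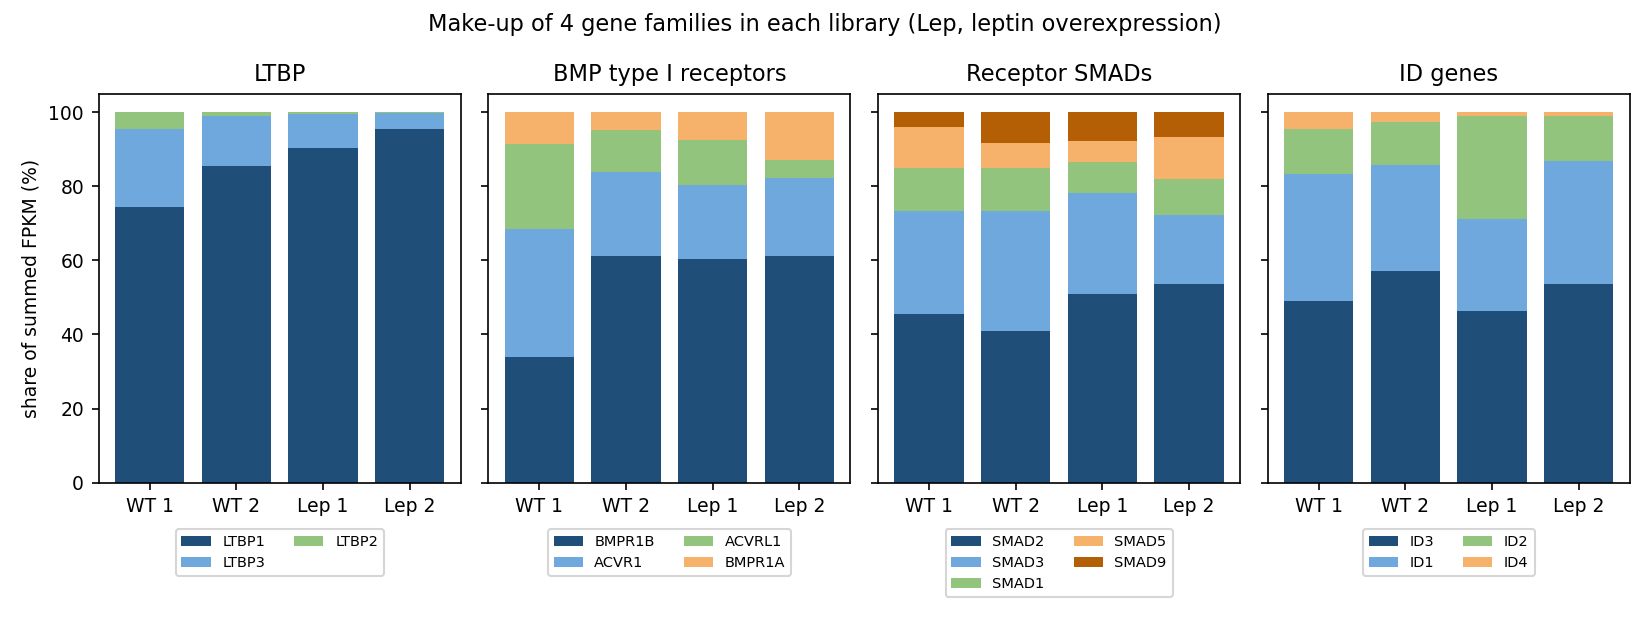
Share of summed FPKM (%) as stacked bars for the 4 libraries. The families are LTBP1 to LTBP3 (without LTBP4), the BMP type I receptors, the receptor SMADs and the ID genes. LTBP1 goes from 74.4% in WT replicate 1 to 95.5% in leptin overexpression replicate 2, and BMPR1B is at 34.0% in WT replicate 1 and at 60.2% to 61.2% in the other 3 libraries.

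Of the 3 TGF-beta receptors, TGFBR2 and TGFBR3 differed more within both groups than between them, and TGFBR1 more within WT only. TGFBR2, the type II receptor and the most abundant of the 3 per length, was at 163 and 304 CPM in WT against 275 and 139 CPM in leptin overexpression. TGFBR1, the type I receptor, was at 45.8 and 102 against 92.7 and 128 CPM. TGFBR3, the co-receptor betaglycan, was at 42.1 and 54.0 against 52.5 and 30.9 CPM. All 3 overlapped between the groups in CPM, with log2 fold changes of -0.17, 0.58 and -0.20 (SE 0.50, 0.46 and 0.40). Leptin overexpression replicate 2 had both the lowest TGFBR2 and the highest TGFBR1, so that TGFBR1 made up 35.4% of their summed FPKM there and 13.7% to 16.9% in the other 3 libraries.

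With TMM scaling SMAD2 and SMAD4 had higher values in leptin overexpression, and SMAD3 overlapped. SMAD2, which transmits TGF-beta and activin signals, was at 56.1 and 70.4 CPM in WT against 105 and 88.9 CPM in leptin overexpression (log2 fold change 0.62, SE 0.36, adjusted p = 0.600). SMAD4, the partner of all receptor SMADs, was at 59.4 and 66.0 against 84.8 and 82.2 CPM (log2 fold change 0.41, SE 0.35, adjusted p = 0.686), without overlap. With library totals in place of TMM factors the log2 fold change of SMAD4 was -0.01 and that of SMAD2 0.22, and both overlapped between the groups in FPKM. SMAD3, the other SMAD of the TGF-beta arm, was at 71.4 and 120 against 117 and 63.5 CPM. TGFBI, a matrix protein named for its induction by TGF-beta, stayed within 37.1 to 44.1 CPM in all libraries.

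Within the receptor SMADs the summed share of SMAD2 and SMAD3 was the same in the 2 WT libraries and differed between the leptin overexpression libraries. It was 73.3% in both WT libraries and 78.2% and 72.2% in leptin overexpression, a difference of 1.89 percentage points with an exact permutation p of 1. SMAD2 alone took 45.5% and 40.9% in WT against 51.0% and 53.6%, and SMAD1 took 11.6% and 11.5% against 8.31% and 9.64%. SMAD3 took 27.8% and 32.4% in WT against 27.2% and 18.7%. These 3 shares were without overlap (exact permutation p = 0.333, the smallest possible and the value of any share without overlap). The SMAD5 and SMAD9 shares overlapped. Shares of a family add up to a fixed total, so the 3 are not separate findings.

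In the BMP arm the tested ligands BMP2, BMP4 and BMP6 had mean levels per length of 1.71, 1.24 and 2.77 FPKM. BMP4, known as a theca ligand, was at 6.85 and 6.09 CPM in WT against 3.66 and 4.33 CPM in leptin overexpression (log2 fold change -0.70, SE 0.53, adjusted p = 0.666), without overlap. BMP6, a granulosa and oocyte ligand, was at 9.66 and 8.53 against 11.6 and 2.76 CPM, and BMP2 at 2.77 and 6.56 against 4.37 and 2.99 CPM. BMP7 had 1 and 2 counts in WT and 0 in both leptin overexpression libraries, where 0 counts allow up to 0.196 and 0.224 CPM. BMP7 was at the limit of detection at this depth, as were 2 BMP antagonists, GREM1 with 8, 0, 0 and 1 counts and NOG with 0, 1, 3 and 0 counts. These 3 genes were not tested. Intervals and limits of this kind cover counting error only.

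CHRDL1 (ENSSSCG00000012576), a secreted antagonist that binds BMPs, was the abundant antagonist of the set. It was at 56.7 and 77.1 CPM in WT against 28.9 and 18.3 CPM in leptin overexpression. The level was 2.84-fold lower (log2 fold change -1.50, SE 0.40, adjusted p = 0.269), and the gap between the groups was wider than the gap within either. CHRDL1 passed with limma-trend on FPKM (adjusted p = 0.0275) and with library totals only (0.00689), and not with DESeq2 (0.0572). Leaving out single libraries gave log2 fold changes from -1.86 to -1.20.

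Of the 5 BMP receptors 0 passed the threshold. In CPM 2 were lower without overlap, where 22.9% of all genes were, and 1 was higher, where 22.2% were. ACVRL1 (ENSSSCG00000000232), the type I receptor of vascular endothelium, was at 40.2 and 41.8 CPM in WT against 26.8 and 12.9 CPM in leptin overexpression (log2 fold change -1.04, SE 0.44, adjusted p = 0.523). ACVR1, a type I receptor for BMPs, was at 33.8 and 40.5 against 25.6 and 26.7 CPM (log2 fold change -0.51, SE 0.36, adjusted p = 0.644). BMPR1A was at 18.2 and 18.4 against 20.2 and 34.7 CPM (log2 fold change 0.59, SE 0.41, adjusted p = 0.641), and its values overlapped in FPKM. These 3 genes did not overlap between the groups in CPM, whereas BMPR2 lay between 25.7 and 33.2 CPM in all libraries. Without leptin overexpression replicate 2, the lowest library, the value of ACVRL1 was -0.60, and with replicate 1 of that group left out it was -1.65.

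BMPR1B (ENSSSCG00000029621), the type I receptor best known for its part in ovulation rate in sheep, was the most abundant BMP receptor per length. It was at 60.9 and 198 CPM in WT against 136 and 140 CPM in leptin overexpression (log2 fold change 0.09, SE 0.54, adjusted p = 0.962). Its direction was negative with library totals only (-0.23), with limma-trend on FPKM (-0.09) and without WT replicate 1 (-0.55), and the log2 fold change was 1.15 with WT replicate 2 left out. On the FPKM scale it took 34.0% of the 4 type I receptors in WT replicate 1 and 60.2% to 61.2% in the other 3 libraries. The luteal marker sum was likewise lowest in WT replicate 1, at 13616 CPM, and the part of these cells in the BMPR1B level was not tested.

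SMAD1, SMAD5 and SMAD9, which carry BMP signals, overlapped between the groups in CPM. In FPKM SMAD1 was lower without overlap, at 6.86 and 7.31 in WT against 5.69 and 4.57, where 39.7% of all genes were so. SMAD1 was at 18.2 and 26 against 21.8 and 20 CPM, and SMAD5 at 32.3 and 28.2 against 27.0 and 42.2 CPM. SMAD9 was at 4.76 CPM in WT replicate 1, 14.3 in WT replicate 2 and 15.5 and 10.7 in leptin overexpression. Their log2 fold changes were -0.08, 0.19 and 0.47 (SE 0.39, 0.39 and 0.57), and that of SMAD5 was -0.27 with library totals only. SMAD9 was at -0.14 with WT replicate 1 left out and at 1.44 with WT replicate 2 left out. SMAD6, the inhibitor of the BMP arm, was lower without overlap, at 4.58 and 5.31 CPM in WT against 3.13 and 3.21 CPM in leptin overexpression (log2 fold change -0.64, SE 0.58, adjusted p = 0.710).

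Of the ID genes, which encode inhibitors of basic helix-loop-helix factors, only ID4 separated the groups in CPM among the 4. ID4 (ENSSSCG00000024312) was at 5.49 and 6.03 CPM in WT against 1.89 and 1.49 CPM in leptin overexpression, from 121 and 101 counts against 29 and 20. It was 3.38-fold lower (log2 fold change -1.76, SE 0.62, adjusted p = 0.432), with log2 fold changes from -1.93 to -1.59 when single libraries were left out. ID1 was at 43.3 and 67.8 against 49.6 and 49.7 CPM and ID3 at 34.3 and 76.0 against 51.4 and 44.7 CPM, so their WT libraries lay on either side of leptin overexpression. ID2 was at 13.0 and 23.8 against 47.7 and 15.5 CPM, and its log2 fold change of 0.78 (SE 0.57) was -0.24 without leptin overexpression replicate 1 and 1.39 without replicate 2 of that group. ID3 and ID1 together held most of the ID level in FPKM, at 48.9% and 34.4% in WT replicate 1, while ID4 held 4.63% and 2.69% in WT against 1.01% and 1.07%.

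Among the genes that serve both arms, BMP1 (ENSSSCG00000009620) had the highest log2 fold change of the 36. It is a metalloprotease that matures procollagens and can cleave LTBP1, and is not a BMP ligand despite its name. It was at 156 and 443 CPM in WT against 1038 and 646 CPM in leptin overexpression, 2.81-fold higher (log2 fold change 1.49, SE 0.59, adjusted p = 0.509). It was the only 1 of the 36 to be higher without overlap in FPKM as well, at 58.2 and 123 against 267 and 145, where 6.85% of all genes were so. On the log2(CPM + 0.5) scale its WT libraries differed by 1.5 and the group means by 1.63. The log2 fold change was 0.91 with WT replicate 1 left out and 2.41 with WT replicate 2 left out, the latter past the threshold (adjusted p = 0.0124).

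Of the 5 inhibitors of both arms 0 passed the threshold. In CPM 3 had lower values without overlap, where 22.9% of all genes did, and 1 had higher values, where 22.2% did. SMAD7, which blocks type I receptors, was at 3.81 and 4.0 CPM in WT against 2.42 and 1.42 CPM (log2 fold change -1.02, SE 0.67, adjusted p = 0.621). SKI, a co-repressor of SMAD complexes, was at 22.4 and 19.8 against 16.0 and 7.69 CPM (log2 fold change -0.83, SE 0.46, adjusted p = 0.591). SMURF1, a ubiquitin ligase for SMADs and receptors, was at 24.4 and 23.5 against 20 and 10.2 CPM. All 3 were without overlap between the groups, with leptin overexpression replicate 2 lowest. SMURF2, the related ligase, went the other way, at 14.9 and 16.5 against 18.5 and 30.9 CPM (log2 fold change 0.65, SE 0.41, adjusted p = 0.611), and overlapped in FPKM. BAMBI, a receptor without kinase activity, was at 17.2 and 14.3 against 17.6 and 6.42 CPM.

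**Figure D3:**
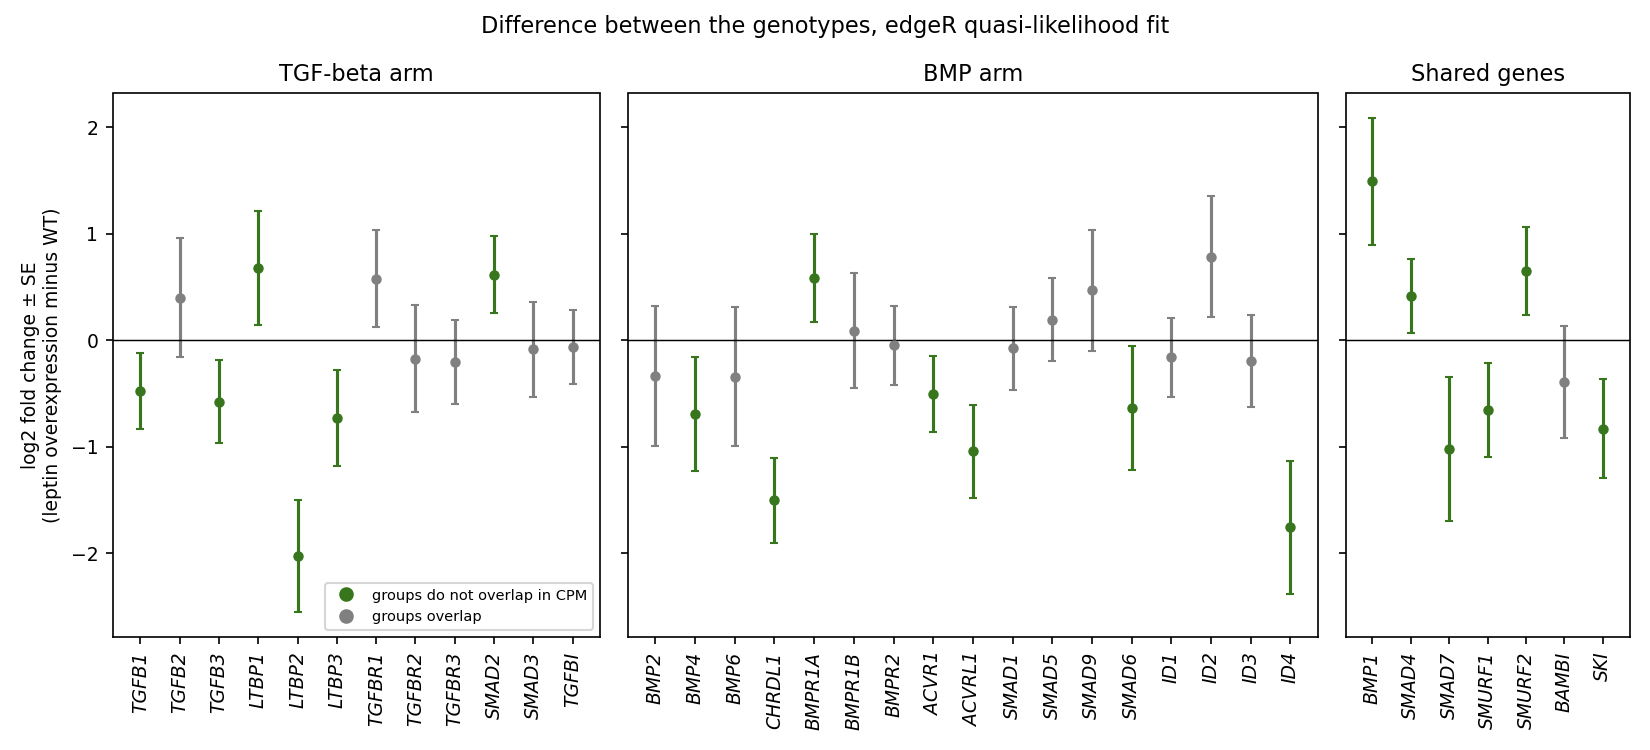
Log2 fold change (leptin overexpression minus WT) with its standard error for the 36 tested genes, by arm, from edgeR. Green points are genes whose groups do not overlap in CPM, 13 lower and 6 higher. LTBP2 at -2.03 and BMP1 at 1.49 are the extremes, and 0 genes passed the threshold.

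The arms were then set side by side. In the TGF-beta arm 8 of 12 tested genes had a negative log2 fold change, with a median of -0.13 and a range of -2.03 to 0.68. In the BMP arm 12 of 17 tested genes of 20 had one, with a median of -0.20 and a range of -1.76 to 0.78. Over all genes tested the median was -0.01 and 50.7% had a negative value. Over all 36 genes 24 had a negative and 12 a positive value, the latter against 49.3% of all genes. The difference of the medians, TGF-beta minus BMP, was 0.067, and no test of a gene list was made. Groups did not overlap for 4 lower and 2 higher genes in the TGF-beta arm and for 6 lower and 1 higher in the BMP arm. Over all 36 genes 13 were lower without overlap, against a background of 22.9%, and 6 were higher, against 22.2%. In FPKM, which has no TMM factors, 18 were lower without overlap, against 39.7%. These included TGFBR3, TGFBI, BMPR2, SMAD1 and ID1, whose values overlapped in CPM.

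The position of both arms depended on single libraries. The mean log2 CPM of the TGF-beta arm was 5.77 and 6.05 in WT against 5.94 and 5.55, and that of the BMP arm 4.14 and 4.60 against 4.22 and 3.95. Both arms were highest in WT replicate 2 and lowest in leptin overexpression replicate 2, and the difference between them stayed within 1.45 to 1.71. Without WT replicate 2 the median log2 fold changes of the arms were 0.088 and 0.066, and without leptin overexpression replicate 2 that of the TGF-beta arm was 0.10. With library totals only, the median of all genes moved by -0.42, and the arms lay at -0.07 (TGF-beta) and -0.11 (BMP) relative to it. Leptin overexpression replicate 2 was the lowest library for 16 of the 36 genes, 8 of them among the 12 of the TGF-beta arm, against 34.2% of all genes. WT replicate 1 was the lowest for 14 genes, 8 of them among the 17 of the BMP arm, against 28.3% of all genes.

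**Figure D4:**
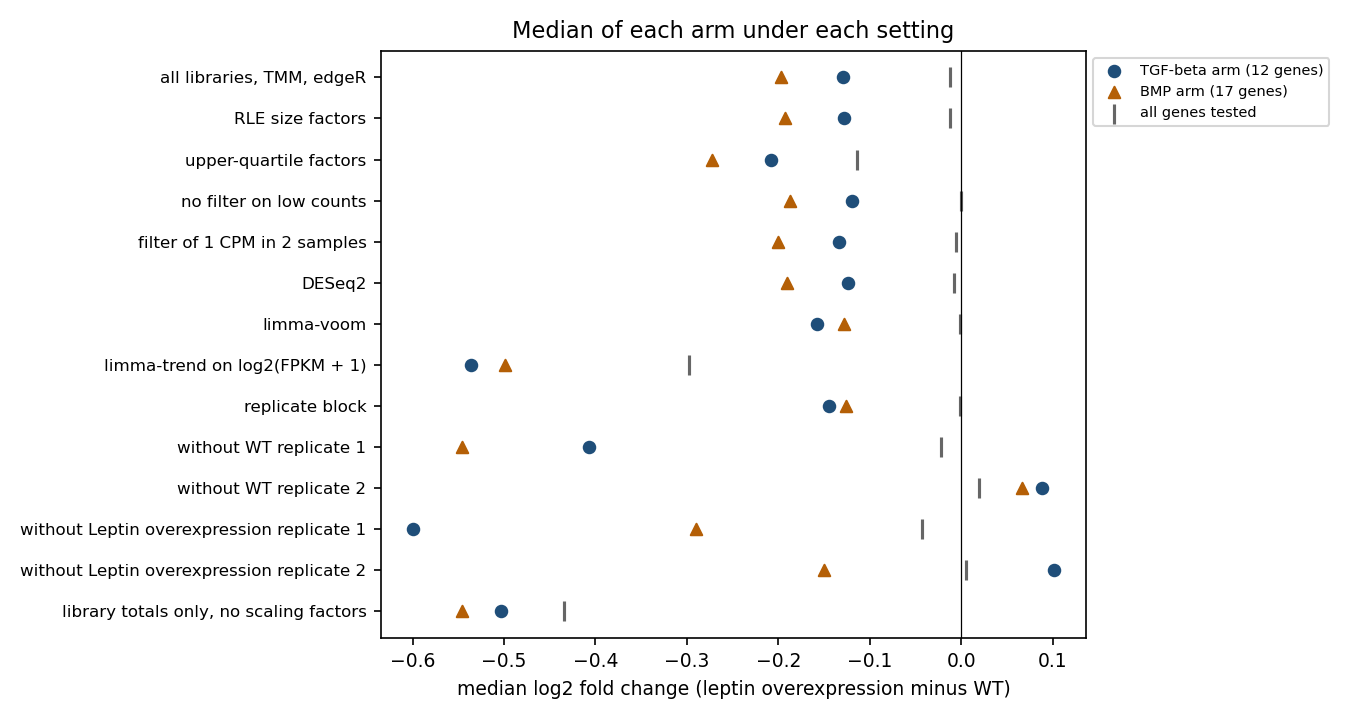
Median log2 fold change of the TGF-beta arm (circles), the BMP arm (triangles) and all genes tested (bars) with all libraries and under each alternative. The arms lie at -0.13 and -0.20 with all libraries and both turn positive, at 0.088 and 0.066, without WT replicate 2.

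Other genes of the 2 pathways were read from lists of 28 TGF-beta and 32 BMP pathway genes. Of 25 tested TGF-beta pathway genes 0 passed the threshold, 11 were lower and 14 higher (median log2 fold change 0.23), and of 20 tested BMP pathway genes 0 passed, 13 were lower and 7 higher (median -0.24). CCN1 and CCN2, known targets of TGF-beta, were chosen after their values were seen and do not stand for all targets on the list. Both overlapped between the groups. CCN1 was at 14.2 and 60.9 against 111 and 9.94 CPM and CCN2 at 39.1 and 148 against 208 and 74.3 CPM. Without overlap in CPM were 7 lower and 8 higher of the 25, and 5 lower and 1 higher of the 20. Of all genes 22.9% were lower and 22.2% higher in that way. SKIL, NEDD4L and STRAP, inhibitors of SMAD signalling, were named for their small p, which makes a lack of overlap likely. Other inhibitors on the list were not all higher. SKIL was at 18.3 and 19.0 against 20.5 and 41.8 CPM, and NEDD4L at 47.2 and 82.8 against 93.5 and 110 CPM. STRAP was at 115 and 128 against 154 and 217 CPM. These 3 genes had higher CPM without overlap. Their log2 fold changes were 0.74, 0.64 and 0.61 (SE 0.44, 0.40 and 0.39, adjusted p = 0.601, 0.607 and 0.615), and SKIL and STRAP overlapped in FPKM.

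The 4 lower genes with the smallest p, none of which passed, were LRRC32, LTBP4, HIPK2 and RGMA. LRRC32, a membrane protein that docks latent TGF-beta on regulatory T cells, platelets and endothelium, was at 23.0 and 21.2 CPM in WT against 7.57 and 3.74 CPM in leptin overexpression (log2 fold change -1.96, SE 0.48, adjusted p = 0.248). LTBP4, a carrier of latent TGFB1, was at 142 and 129 against 64.5 and 32.1 CPM (log2 fold change -1.49, SE 0.43, adjusted p = 0.326). LRRC32 passed with DESeq2 (adjusted p = 0.0256) and without a filter on low counts (edgeR, adjusted p = 0.0238). LTBP4 did not pass with DESeq2 (0.0641) and did with limma-trend on FPKM (0.0123). HIPK2, a kinase that acts with SMAD co-repressors, was at 48.2 and 20.3 against 12.5 and 7.99 CPM, and RGMA, a BMP co-receptor, at 89.5 and 81.6 against 62.2 and 31.5 CPM (adjusted p = 0.328 and 0.562). HIPK2 passed without a filter on low counts (edgeR, adjusted p = 0.0433) and not with DESeq2 (0.0743). It had a log2 fold change of -1.74, of -1.0 when WT replicate 1 was left out, and of -2.25 when WT replicate 2 was left out. Each of the 4 genes lay lower in both leptin overexpression libraries than in either WT library, as did 22.9% of all genes. Their choice by small p in the same libraries makes this likely, so it is no separate result.

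**Figure D5:**
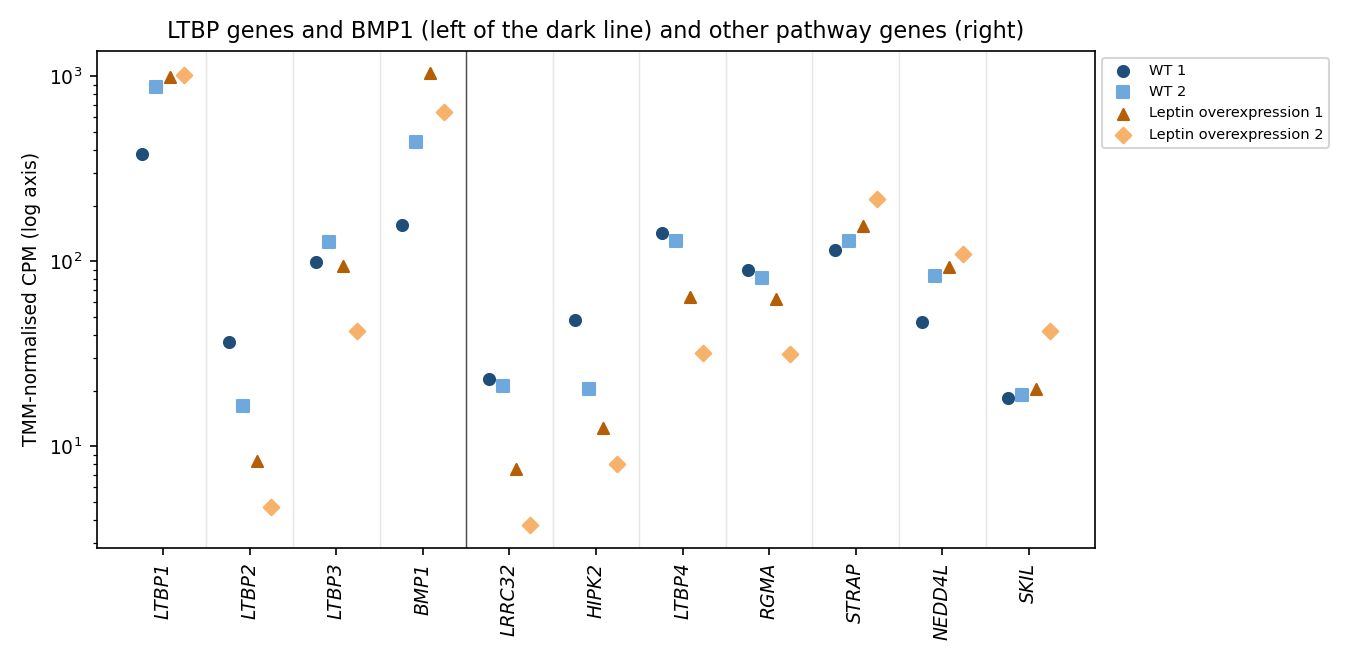
TMM-normalised CPM on a log axis in the 4 libraries for LTBP1, LTBP2, LTBP3 and BMP1, and for 7 other pathway genes, LTBP4 among them. Of these 7, 4 are lower and 3 higher. LTBP2, LTBP4 and LRRC32 are lower and STRAP is higher in both leptin overexpression libraries than in either WT library.

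Markers of other cell types differed between the same libraries. As background, 50.7% of all genes tested were lower and 22.9% were lower without overlap in CPM. Of 10 endothelial markers 9 were lower, 2 of them without overlap, and their summed CPM was 814 and 1503 in WT against 1030 and 499.5 in leptin overexpression, with PECAM1 at 232 and 290 against 196 and 138 CPM and KDR at 128 and 315 against 242 and 85.8 CPM. None of the 10 was at 0. The part of endothelial cells in the values of ACVRL1, SMAD6 and LRRC32 was not tested. Of 10 smooth muscle and pericyte markers 8 were lower, 6 of them without overlap, and none was at 0. Their sums were 1554 and 1748 against 1057 and 1157 CPM. The most abundant were ACTA2, which was lower, and RGS5, which was not. RGS5 was at 212 and 325 against 368 and 276 CPM (log2 fold change 0.26, SE 0.44). The part of smooth muscle cells and pericytes in the values of LTBP2 and LTBP4 was not tested.

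Epithelial markers were lower too, apart from EPCAM, where 50.7% of all genes were lower and 22.9% were so without overlap. All 6 matched oviduct epithelium markers were lower without overlap, with sums of 460 and 242 CPM in WT against 37.9 and 28.2 CPM in leptin overexpression. FOXJ1 and SPAG6 were at 0 in leptin overexpression replicate 1 and TEKT1 in replicate 2, OVGP1 was at 316 and 183 against 0.0653 and 1.20 CPM, and TPPP3 at 66.0 and 35.2 against 28.6 and 18.7 CPM. Of 4 matched surface epithelium markers 3 were lower without overlap, with sums of 159 and 77.8 against 5.94 and 66.2 CPM, KRT18 being at 0 in leptin overexpression replicate 1, and EPCAM at 33.8 and 7.76 against 2.55 and 57.1 CPM. KRT8 was at 55.2 and 36.1 against 2.94 and 5.15 CPM. The part of these epithelia in the values of CHRDL1 and ID4 was not tested. Leukocyte markers, led by CSF1R and CD68, were lower in 5 of 6, 4 of them without overlap. Their sums were 166 and 124 against 90.6 and 80.2 CPM. Oocyte markers, led by GDF9 and ZP3, were lower in 6 of 6 tested, 1 of them without overlap. Their sums were 143 and 23.2 against 20.1 and 26.7 CPM, with WT replicate 1 highest.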

How the data were processed

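Poly(A)-enriched RNA was made into libraries with the NEBNext Ultra RNA kit and sequenced on a NovaSeq instrument, per the labels' protocols. The authors deposited expected counts per gene, without scaling, per the file headers. They also deposited FPKM values, scaled to length and depth, per the file headers. Tools named without a role in the submitters' processing notes are RSEM, HISAT2, DESeq2, edgeR 3.32.0, StringTie 1.3.1, Bowtie2 2.2.8 and fastp 0.18.0. The genome build and the use of strand are not given in the sources used here. Hence no coordinates are reported and reads of overlapping genes cannot be told apart. No sequences of these genes were used here.

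Expected counts were rounded to whole numbers, filtered with filterByExpr, scaled with TMM factors and tested for genotype, the only term, by the quasi-likelihood method of edgeR 4.0.16 in R 4.3.3, with Benjamini-Hochberg adjustment over 13937 genes. Adjusted p-values are from this fit unless another tool or setting is named. The method was tested on simulated data with planted changes. The spread of these data was set by hand and not taken from the 4 libraries, so the power to find changes here was not measured. Positive log2 fold changes mean a higher level in leptin overexpression. Each SE was obtained from the fold change and its F statistic. Arm levels are means of log2(CPM + 0.5). A limit of 3 counts came to 0.136 to 0.224 CPM.

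Alternatives were DESeq2 1.42.0, upper-quartile and RLE factors, a filter of 1 CPM in 2 samples or none, limma-trend on log2(FPKM + 1), which understates the change of low genes, limma-voom (limma 3.58.1), the replicate number as a block, each library left out and, chosen after seeing the data, library totals only. The members and lists were chosen with earlier results of these data known. Of 134 list entries 126 matched a row. The text names all members, LEP, the 4 other pathway genes per direction with the smallest p, of which 1 is not reported here, and the 2 most abundant markers of each list. CCN1, CCN2 and the markers given as 0 were chosen after their values were seen.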

Additional observations from a re-analysis of the deposited data

How the results depend on the processing

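With all libraries, 4 genes of the whole table passed, all higher. The count was 11 with upper-quartile factors (7 higher, 4 lower), 252 without a filter (84 and 168), 319 with DESeq2 (104 and 215), 1 with limma-voom, 326 with limma-trend on FPKM (70 and 256), 551 with library totals only (73 and 478), and 0 to 681 when single libraries were left out. Of the 36 tested genes of the family 0 passed. The count was 1 with DESeq2 and without a filter (LTBP2 in both), 1 with limma-trend on FPKM (CHRDL1), 2 with library totals only (LTBP2 and CHRDL1), and 0 to 2 when single libraries were left out, LTBP2 and BMP1 without WT replicate 2. The count at an unadjusted p under 0.05 ran from 3 to 10 without single libraries. With limma-trend on FPKM the median log2 fold changes of the TGF-beta and BMP arms were -0.54 and -0.50, where that of all genes moved by -0.29, and with library totals only they were -0.50 and -0.55. Upper-quartile factors moved the median of all genes by -0.10. Without single libraries the medians ran from -0.60 to 0.10 in the TGF-beta arm and from -0.55 to 0.066 in the BMP arm, and their difference from -0.31 to 0.25. The difference in the SMAD2 and SMAD3 share ran from -1.10 to 4.89 percentage points. The cause of these differences was not tested. Among 468 values of single members under the alternatives, 25 had the opposite sign, in 17 genes, and 19 genes kept their sign in every setting run.

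The replicate numbers are labels only. Deviations from the group means of same-numbered samples correlated at -0.0995 over 13937 genes. With the replicate number as a block 23 genes of the whole table passed (11 higher, 12 lower), and of the 36 genes 0. When a library is left out, the lone sample of its group is assumed to vary like the other group. Depth limited BMP7, GREM1 and NOG, and 2 libraries per group limited all tests.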

Other observations

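Some members lie next to each other in the gene order of the RefSeq table (Sscrofa11.1), which held all 39. SMAD6 and SMAD3 have 0 protein-coding genes between them, as have TGFBI and SMAD5, and SMAD2 and SMAD7 have 2 between them. SMAD7, the inhibitor, had a log2 fold change of -1.02 and SMAD2, the receptor SMAD, of 0.62, and neither overlapped between the groups. SMAD6 had -0.64 (SE 0.58) and SMAD3 -0.09 (SE 0.44), and TGFBI had -0.07 (SE 0.35) and SMAD5 0.19 (SE 0.39). Differences between neighbours were not tested.

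The difference between the groups was larger than the differences within both groups for 13 of the 36 tested genes on the log2(CPM + 0.5) scale, against 26.3% of all genes. These were TGFB1, TGFB3, LTBP2, SMAD2, BMP4, CHRDL1, ACVR1, ACVRL1, SMAD6, ID4, BMP1, SMAD4 and SMAD7. The CPM fell in the order of the TMM factors, from WT replicate 1 to leptin overexpression replicate 2, for 5 genes, 3 of them in the TGF-beta arm, against 10.5% of all genes, and rose in that order for 3, against 11%.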
